A study of Mus musculus with 12 samples.

Results

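Bulk RNA-Seq of W-20 cells, a murine bone marrow stromal cell line, held 31 genes that were silent in WT cells and expressed in Y428F cells, of 56980 genes in the matrix. A gene was counted as silent when it had at most 5 expected counts (reads assigned by estimation, so not always whole) in each of the 6 WT libraries, and as expressed when it had at least 40 in each of the 6 Y428F libraries. The genes were thus chosen by their counts in both lines, so the difference between the lines is described and was not tested. The same limits with the lines exchanged gave 13 genes.

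The study examined how parathyroid hormone (PTH) acts on the transcriptional coactivator YAP, and whether phosphorylation of a tyrosine of YAP takes part. There were 12 libraries, 3 in each of 4 groups: WT cells with vehicle (PBS), WT cells with 50 nM PTH, Y428F cells with vehicle and Y428F cells with 50 nM PTH, all for 2 h. All groups were grown in the same medium with serum. Library totals ranged from 17127897 to 19057319 counts. The Y428F cells were a stable line made with a plasmid for Flag-tagged YAP in which that tyrosine was replaced by phenylalanine, and clones were selected with puromycin. The study's text also gives the sequenced line a substitution of a serine, which the library titles do not. Groups were taken from the titles, since the genotype field of the Y428F libraries reads WT. Cells given a wild-type YAP were used in other assays of the study but were not among the 12 libraries. In these libraries the mutation, the vector, the selection and the clone thus cannot be told apart. Nothing in the labels says that the 3 libraries of a group came from separate cultures, so the p-values measure the spread between these libraries, which may be technical.

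PTH acts through a receptor that raises cAMP in cells of the osteoblast lineage. YAP enters the nucleus and acts there with TEAD factors, and phosphorylation by the Hippo kinases keeps it in the cytoplasm or leads to its degradation. Marrow stromal cells can become osteoblasts or adipocytes. CpG pairs near a start site can be methylated, a mark often found on silent genes, and housekeeping genes commonly start in CpG-rich stretches. Methylation was not measured here.

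Yap1 counts did not mark the lines by a gain. They were 3414, 3375 and 3613 in WT cells with vehicle, 4150, 4003 and 3956 in WT cells with PTH, 2731, 2793 and 2726 in Y428F cells with vehicle, and 3084, 3002 and 3156 in Y428F cells with PTH. All 6 Y428F libraries were below all 6 WT libraries, and the counts do not separate an introduced copy from the cell's own gene. Of 12 stromal markers, 9 had at least 40 counts in every WT library and 9 in every Y428F library. Col1a2, a chain of type I collagen, was the most abundant of them in both lines, at 12822 CPM (counts scaled by library size) in WT cells against 7171 CPM in Y428F cells, whereas Thy1 had 0 counts in all 12 libraries.

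One library stood apart. WT PTH library 1 had 17 genes with at least 10 counts where no other WT library had more than 2, against 0 to 6 such genes in each of the other 11 libraries, each compared with its own line. They included Csf3 with 43 counts and Gpc1 with 35. Genes of the Y chromosome summed to 30 counts in that library and to 0 or 1 in every other library. These genes were chosen after their values were seen. The 31 genes summed to 48.55 counts there and to between 31 and 46 in the other WT libraries. Without that library the limits gave 33 genes, the same 31 with Fgfbp1 and Gpc1.

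Summed over the 31 genes, WT cells with vehicle had 45, 43 and 46 counts, and WT cells with PTH had 48.55, 31 and 40. Y428F cells with vehicle had 4217.63, 4709.25 and 4322.7 counts, and with PTH 4130.46, 4188.76 and 4070.85. This was between 0.0225% and 0.0247% of a Y428F library, so all 31 genes together were a small share of the RNA. Bche made up between 15.9% and 17.5% of it. In bulk RNA, fewer expressing cells and less RNA in each cell cannot be told apart.

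**Figure D1:**
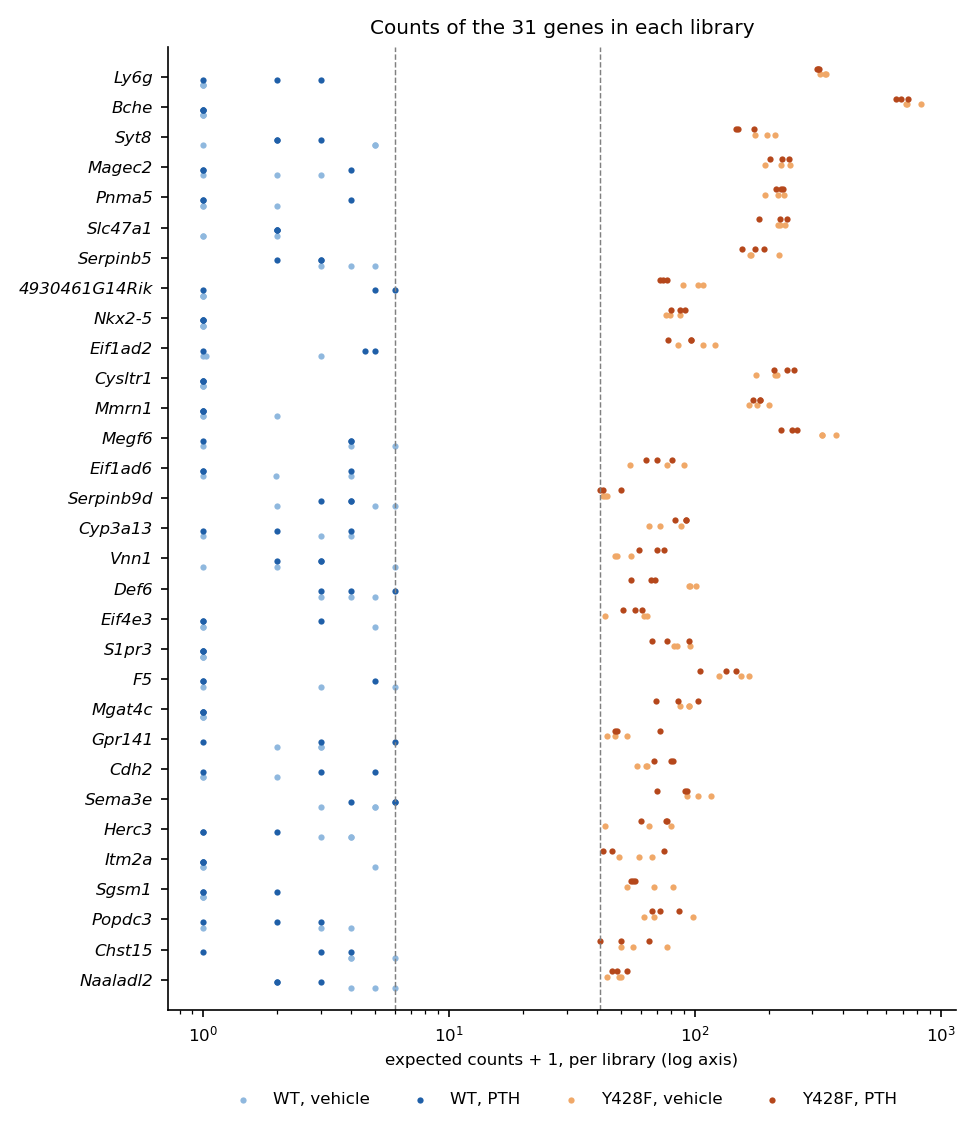
Expected counts plus 1 of each of the 31 genes in each of the 12 libraries (log axis), ordered by level per length in Y428F cells, with the limits of 5 and 40 counts as dashed lines. The 6 WT points of each gene lie at or left of the first line and the 6 Y428F points at or right of the second, as the limits require. Vehicle and PTH points of Y428F cells lie close together, while those of WT cells are held to 5 counts or fewer by the limits.

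Of the 31 genes, 30 were protein-coding and 1 was a long non-coding RNA. They lay on 15 chromosomes. The X chromosome held 4 of them (Magec2, Pnma5, Cysltr1 and Itm2a), where it held 345 of the 10669 genes with at least 40 counts in all Y428F libraries. Chromosomes 5, 6, 10 and 13 held 3 each. Only 1 pair, Eif1ad6 and Eif1ad2 on chromosome 12, lay within 500 kb of each other, 112.52 kb apart with 14 annotated genes between them.

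Bche, Cysltr1, Mgat4c, Nkx2-5 and S1pr3 had 0 counts in all 6 WT libraries. A count of 0 over the group allows up to 3 counts, so each fold of these genes is a lower bound against that floor over the 6 libraries and covers counting error only.

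Bche encodes butyrylcholinesterase, an enzyme that splits choline esters, and lies on chromosome 3 (GRCm39, 73543141 to 73615748, minus strand). It had 728, 825 and 722 counts in Y428F cells with vehicle and 655, 733 and 687 with PTH, the highest counts of the 31 genes. The level was 39.4 ± 2.02 CPM (SD, n = 6), at least 1387-fold higher than in WT cells. Among the fixed list of cholinesterases and their anchors, the related enzyme Ache was at 1.15 CPM in WT cells against 0.469 CPM in Y428F cells, the anchor Colq at 0.675 and 0.489 CPM, and no member of the list other than Bche reached 40 counts in every library of a line.

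Cysltr1 encodes a receptor for the cysteinyl leukotrienes, lipid mediators of inflammation, and lies on chromosome X (105617952 to 105647308, minus strand). It had 176, 211 and 215 counts with vehicle and 235, 208 and 251 with PTH in Y428F cells. The groups with and without PTH overlapped, and the level of 11.8 ± 1.52 CPM (SD, n = 6) was at least 413-fold higher than in WT cells. The second receptor, Cysltr2, the related receptor Oxgr1 and Alox5, the lipoxygenase that starts leukotriene synthesis, had 0 counts in all 12 libraries. Ltc4s, which makes the first cysteinyl leukotriene, had 2 to 6 counts in WT libraries and 0 in every Y428F library. Alox5ap, the partner protein of that lipoxygenase, was at 3.19 CPM in WT cells against 6.53 CPM in Y428F cells, and Ggt5, which converts the first of these leukotrienes to the next, was at 12.1 and 1.92 CPM. Lta4h, which leads to the other leukotriene branch, was the most abundant gene of the list at 59.1 and 71.2 CPM. Thus 3 of the 11 genes, with Cysltr1 among them by the limits that chose it, had at least 40 counts in all Y428F libraries. In all WT libraries 2 did.

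S1pr3 encodes a receptor for sphingosine 1-phosphate and lies on chromosome 13 (51561702 to 51576833, plus strand). It had 81, 94 and 83 counts with vehicle and 76, 93 and 66 with PTH in Y428F cells, at least 157-fold above WT cells. The other widely expressed receptors of this ligand were present in both lines, S1pr1 at 88.6 CPM in WT cells against 29.7 CPM in Y428F cells and S1pr2 at 86.3 and 53.4 CPM. Gpr141, an orphan receptor, was near both limits, with 0 to 5 counts in WT and 43 to 71 in Y428F libraries.

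Nkx2-5 encodes a homeobox transcription factor of heart development and lies on chromosome 17 (27057638 to 27063983, minus strand) and had 78, 86 and 75 counts with vehicle and 86, 90 and 79 with PTH in Y428F cells. Its bound was at least 157-fold. Nkx2-3 stayed at a mean of 0 CPM in WT cells against 0.0275 CPM in Y428F cells. Of the 5 skeletal muscle markers, none reached 40 counts in all libraries of either line, and Myh3, the most abundant, was at 0.0452 and 0.235 CPM. Popdc3, a Popeye domain protein of muscle membranes, had 0 to 3 counts in WT and 61 to 97 in Y428F libraries.

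Mgat4c belongs to the family of glycosyltransferases that branch N-glycans and had 93, 93 and 86 counts with vehicle and 84, 102 and 68 with PTH in Y428F cells, at least 168-fold above WT cells. Its relative Mgat4b was at 249 CPM in WT cells against 262 CPM in Y428F cells, Mgat4a at 0.108 and 0.0797 CPM, and Mgat3, another glycosyltransferase of N-glycans, at 0.979 and 5.63 CPM (10 to 34 and 75 to 142 counts). Chst15, a sulfotransferase of chondroitin sulfate, had 0 to 5 counts in WT and 40 to 76 in Y428F libraries.

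The 250 bases before the canonical start are given for 3 of the genes at 0 counts in all WT libraries and for Ly6g and Megf6, the genes with the highest level per length and with a call for PTH, so that their CpG content can be seen. They are read 5′ to 3′ in the direction of the gene, from GRCm39 with the start sites of GENCODE, and CpG pairs are in capitals. The windows are chr3:73615749-73615998 (minus strand) for Bche, chrX:105647309-105647558 (minus strand) for Cysltr1, chr13:51562425-51562674 (plus strand) for S1pr3, chr15:75026839-75027088 (plus strand) for Ly6g and chr4:154254916-154255165 (plus strand) for Megf6.
Bche: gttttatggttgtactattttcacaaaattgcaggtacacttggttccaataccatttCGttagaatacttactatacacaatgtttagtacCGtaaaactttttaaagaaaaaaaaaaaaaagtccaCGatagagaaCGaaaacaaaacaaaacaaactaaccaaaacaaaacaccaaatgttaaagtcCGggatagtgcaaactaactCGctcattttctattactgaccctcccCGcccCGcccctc
Cysltr1: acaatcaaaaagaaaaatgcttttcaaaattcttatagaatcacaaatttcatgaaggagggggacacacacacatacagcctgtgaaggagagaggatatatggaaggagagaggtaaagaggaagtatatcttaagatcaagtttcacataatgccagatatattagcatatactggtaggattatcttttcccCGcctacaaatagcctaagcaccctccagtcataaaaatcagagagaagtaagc
S1pr3: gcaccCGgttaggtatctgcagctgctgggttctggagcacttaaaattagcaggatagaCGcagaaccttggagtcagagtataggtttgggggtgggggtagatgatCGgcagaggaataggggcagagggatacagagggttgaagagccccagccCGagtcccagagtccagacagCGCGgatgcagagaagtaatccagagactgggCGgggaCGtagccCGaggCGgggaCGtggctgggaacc
Ly6g: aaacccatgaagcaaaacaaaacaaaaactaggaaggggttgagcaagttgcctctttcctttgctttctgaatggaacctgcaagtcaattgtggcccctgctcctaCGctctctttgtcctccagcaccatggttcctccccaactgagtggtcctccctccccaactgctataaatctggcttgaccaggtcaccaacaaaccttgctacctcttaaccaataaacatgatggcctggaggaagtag
Megf6: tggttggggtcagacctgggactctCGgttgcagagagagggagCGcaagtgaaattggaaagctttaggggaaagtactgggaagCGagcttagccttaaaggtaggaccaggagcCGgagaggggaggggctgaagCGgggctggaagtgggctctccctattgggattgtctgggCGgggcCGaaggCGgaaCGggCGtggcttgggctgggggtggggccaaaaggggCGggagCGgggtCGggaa

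These windows held 8, 1, 11, 1 and 13 CpG in that order. The same window held 6 CpG for Nkx2-5 and 3 for Mgat4c. These sequences are not printed because 17 of the bases for Nkx2-5 and all 250 for Mgat4c lie in annotated exons, the latter far inside the gene as annotated from its first start, so they are not free upstream sequence. The printed S1pr3 window also lies inside the gene as annotated from its first start (51561702), though outside annotated exons. Over the 31 genes, with all of these windows included, the median was 4 CpG (quartiles 3 and 7.5). It was 8 over all 21618 protein-coding genes and 13 over the 10247 protein-coding genes with at least 40 counts in all Y428F libraries. At least 10 CpG were found in 6 of the 31 windows (19.4%), against 43.4% of all protein-coding genes and 68.3% of the expressed ones. At most 3 were found in 10 (32.3%), against 30.6% and 7.75%. The 31 genes were thus poorer in CpG than the genes Y428F cells express, and their share at the low end was near that of all protein-coding genes. This is a description, with no test.

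**Figure D2:**
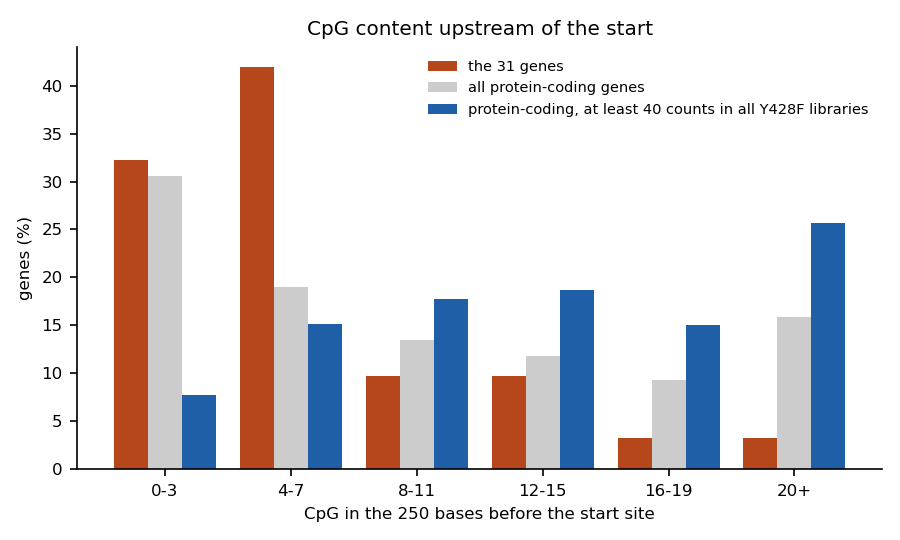
Share of genes (%) by number of CpG in the 250 bases before the start site, for the 31 genes, all protein-coding genes, and protein-coding genes with at least 40 counts in all Y428F libraries. The 31 genes lie mostly at up to 7 CpG, whereas 68.3% of the expressed protein-coding genes have at least 10.

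Motifs were searched on both strands of the same windows. The TEAD site GGAATG was in 1 of the 31 (3.23%, 4930461G14Rik) and in 12.1% of all protein-coding genes and 11.3% of those with at least 40 counts in all Y428F libraries. The cAMP response element TGACGTCA was in 0 of the 31, in 1.69% of all and in 2.25% of the expressed genes. The AP-1 site TGANTCA was in 2 (6.45%, Cyp3a13 and Serpinb5) against 6.19% and 4.36%, and TATAAA was in 4 (12.9%, Mgat4c in the exonic window named above, Ly6g, Magec2 and Gpr141) against 12.0% and 6.80%. A match is only a match of letters, and its absence says nothing about a factor outside the window.

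Ly6g encodes a GPI-anchored surface protein by which neutrophils are sorted, and lies on chromosome 15 (75027089 to 75030982, plus strand). It had 0, 0 and 0 counts in WT cells with vehicle and 1, 2 and 0 with PTH. In Y428F cells it had 321, 336 and 339 counts with vehicle and 317, 313 and 316 with PTH, and in CPM the treatments overlapped. The fold over the pooled libraries was 619 (exact 95% counting interval 211 to 3004). Per kb of transcript it was the most abundant of the 31 genes, at 18.3 CPM per kb, the 82.4 percentile of the genes tested. The other 9 of the 10 neutrophil markers, among them S100a8, S100a9, Mpo and Elane, had 0 counts in all 12 libraries.

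Ly6g lies in the Ly6 cluster of chromosome 15, and the fixed Ly6 list is described beside it. Of its 17 genes, 3 had at least 40 counts in all WT libraries and 7 in all Y428F libraries, with Ly6g among the 7 by the limits. Psca was at 0.554 CPM in WT cells against 25.9 CPM in Y428F cells, Slurp1 at 0.568 and 9.23 CPM, and Ly6f at 0.324 and 5.12 CPM. Genes present in WT cells were Ly6a (Sca-1) at 144 and 323 CPM, Ly6c1 at 214 and 402 CPM, and Ly6e at 507 and 560 CPM. Ly6d was at 0.0583 and 0.605 CPM, Ly6c2 at 0.0577 and 0.290 CPM, and Lypd6b at 0.0555 and 0.251 CPM. Ly6i was at 0.846 and 0.776 CPM, Ly6h at 0.196 and 0.0438 CPM, and Lypd1 at 0.0805 and 0.0374 CPM. Ly6m and Gpihbp1 had at most 1 count in a library, and Ly6k and Ly6l had 0 counts in all 12. Ly6g2, which is not in that list and lies 57.111 kb from Ly6g, fell just short of the limit with 0 to 3 counts in WT and 39 to 60 in Y428F libraries.

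Mmrn1 encodes multimerin 1, a large protein of platelets and endothelial cells that binds coagulation factor V, and F5 encodes factor V itself. Mmrn1 had 0, 0 and 1 counts in WT cells with vehicle and 0 in each with PTH, and in Y428F cells 164, 178 and 199 with vehicle and 182, 182 and 171 with PTH. Its pooled fold was 1029, resting on 1 WT count, with an exact 95% counting interval of 184 to 40676. F5 had 0, 2 and 5 counts in WT cells with vehicle and 0, 0 and 4 with PTH, and in Y428F cells 152, 165 and 124 with vehicle and 103.92, 145 and 132 with PTH. Of the 7 megakaryocyte markers, 1 had at least 40 counts in all WT libraries and 3 in all Y428F libraries, with Mmrn1 among the 3 by the limits. Besides Mmrn1 these were Itga2b, at 4.82 CPM in WT cells against 6.04 CPM in Y428F cells, and Ppbp, which fell just outside the WT limit with 1 to 6 counts in WT and 64 to 78 in Y428F libraries. The defining marker Pf4 had at most 3 counts in WT and 4 in Y428F libraries. Of the EMILIN family to which Mmrn1 belongs, Emilin1 was at 660 CPM in WT cells against 566 CPM in Y428F cells, Emilin2 at 43.3 and 3.15 CPM, and Mmrn2 at 0.0946 and 0.0267 CPM.

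Several of the genes act at the cell surface or outside the cell. Megf6 encodes a secreted protein with EGF-like repeats and had 3, 0 and 5 counts in WT cells with vehicle and 3, 3 and 0 with PTH, against 326, 374 and 327 and then 246, 259 and 222 in Y428F cells. Cdh2, N-cadherin, had 0 to 4 counts in WT and 57 to 80 in Y428F libraries. Other cadherins differed in both directions: Cdh11, the cadherin of osteoblasts, was at 115 CPM in WT cells against 2.21 CPM in Y428F cells, Cdh5 at 0.664 and 6.89 CPM, Cdh17 at 2.02 and 13.7 CPM, and Cdh13 at 153 and 96.0 CPM. Sema3e, a secreted semaphorin, had 2 to 5 counts in WT and 69 to 115 in Y428F libraries, and its receptor gene Plxnd1 was at 165 and 93.8 CPM. Itm2a, a membrane protein, had 0 to 4 and 41 to 74 counts, whereas its relatives Itm2b and Itm2c were at 452 and 367 CPM in WT and 307 and 193 CPM in Y428F cells.

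The protease inhibitors Serpinb5 (maspin) and Serpinb9d were on different chromosomes and at different levels. Serpinb5 had 4, 2 and 3 counts in WT cells with vehicle and 1, 2 and 2 with PTH, and in Y428F cells 167, 219 and 166 with vehicle and 189, 154 and 175 with PTH. Serpinb9d had 1 to 5 and 40 to 49 counts, the smallest pooled fold of those with any WT count (13.6, exact 95% counting interval 8.43 to 23.3). Relatives from the same gene cluster as Serpinb9d had counts in every library, Serpinb9c at 1.42 CPM in WT cells against 5.39 CPM in Y428F cells, Serpinb9b at 3.44 and 13.5 CPM, Serpinb9e at 0.768 and 2.14 CPM, Serpinb9f at 10.4 and 29.7 CPM, and Serpinb9 at 48.2 and 75.7 CPM. Serpinb9g was at 44.7 and 38.5 CPM, the 1 of these relatives with a lower mean in Y428F cells.

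Transport and metabolism were represented by Slc47a1, an exporter of organic cations, with 0 to 1 counts in WT and 181 to 235 in Y428F libraries. Cyp3a13, a cytochrome P450, had 0 to 3 and 64 to 91 counts, and no other Cyp3a gene reached a mean of 0.3 CPM in either line. Vnn1, a pantetheinase, had 0 to 5 and 46 to 74 counts, and Naaladl2, a peptidase-like protein, had 1 to 5 and 43 to 52.

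Genes of signalling and protein turnover were Syt8, a synaptotagmin, with 0 to 4 counts in WT and 146 to 210 in Y428F libraries, Def6, a signalling protein best known in lymphocytes, with 2 to 5 and 54 to 100, Sgsm1, a TBC domain protein, with 0 to 1 and 52 to 80, and Herc3, a ubiquitin ligase, with 0 to 3 and 42 to 79. Eif4e3, a cap-binding protein, had 0 to 4 and 42 to 63 counts, whereas Eif4e2 was at 64.2 CPM in WT cells against 72.2 CPM in Y428F cells.

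The last group holds genes best known from the germ line or from domesticated retroelements. Magec2, a MAGE gene, had 1, 0 and 2 counts in WT cells with vehicle and 3, 0 and 0 with PTH, and in Y428F cells 191, 242 and 223 with vehicle and 240, 225 and 201 with PTH. Pnma5, of a family derived from a retroelement Gag protein, had 0 to 3 and 190.63 to 228.62 counts, and its neighbour Pnma3 had 0 counts in every WT library and a mean of 0.512 CPM in Y428F cells. The long non-coding RNA 4930461G14Rik had 0 to 5 and 71 to 107 counts. Eif1ad6 and Eif1ad2 had 53.42 to 89.52 and 76.23 to 119.11 counts in Y428F libraries. Of their 75-base windows, 96.6% and 89.2% also occurred in another gene, chiefly in each other, so the split of reads between them is uncertain. Shared windows made up 23.9% of Pnma5, all of them shared with Pnma3, so the split of reads between Pnma5 and Pnma3 is also uncertain. They made up 16.8% of Serpinb9d, 9.93% of Eif4e3 and 1.62% of Itm2a, and the other 25 genes had none.

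The limits left some genes close by. Just inside the WT limit, with a highest WT count of 5, were 10 of the 31: 4930461G14Rik, Chst15, Def6, F5, Gpr141, Megf6, Naaladl2, Sema3e, Serpinb9d and Vnn1. Just inside the Y428F limit were Serpinb9d and Chst15 with a lowest count of 40, Itm2a with 41, and Eif4e3 and Herc3 with 42. Just outside the WT limit, at a highest count of 6, were Ppbp, Smoc1, Slc9b1, Itgad and Pkp1, and just outside the Y428F limit were Eml2 and Ly6g2 with a lowest count of 39, Akr1c12 with 33, Prss46 with 29 and Afp with 28. No gap in the counts set the 31 genes apart from these.

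For the 26 genes with any WT count, the pooled fold ran from 13.6 (Serpinb9d) to 1029 (Mmrn1) with a median of 55.5. Levels per length in Y428F cells were modest. The median over the 31 genes was 1.49 CPM per kb, against 2.89 over all genes tested that had a length, and 8 of the 31 were above that value. After Ly6g the highest were Bche (6.34 CPM per kb), Syt8 (6.30), Magec2 (6.08), Pnma5 (4.22), Slc47a1 (3.96), Serpinb5 (3.54), 4930461G14Rik (2.97), Nkx2-5 (2.89), Eif1ad2 (2.71), Cysltr1 (2.28) and Mmrn1 (2.18). The lowest was Naaladl2 at 0.276 CPM per kb, the 28.5 percentile of the genes tested.

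**Figure D3:**
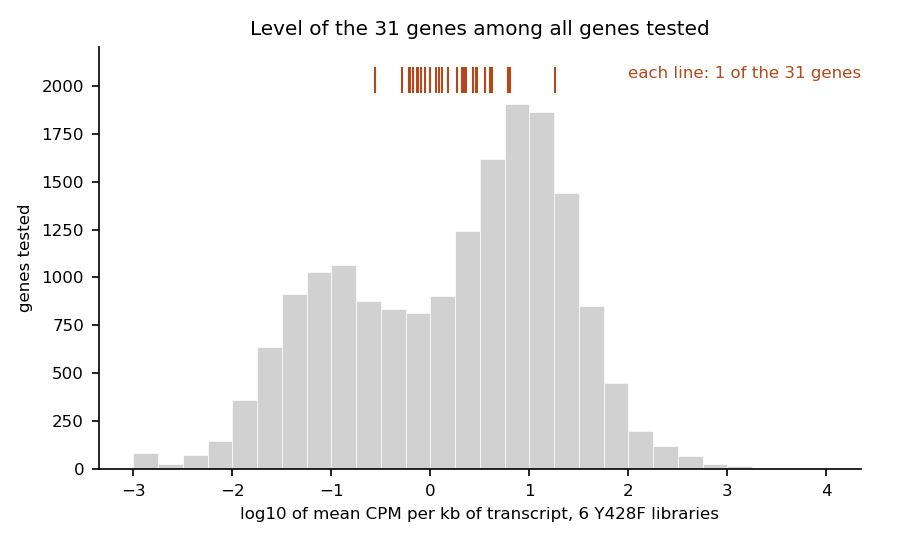
Histogram of the number of genes tested by log10 of the mean CPM per kb in the 6 Y428F libraries, with a line for each of the 31 genes above it. Most of the lines lie below the upper peak of the histogram, Ly6g is the line farthest to the right, and Naaladl2 the one farthest to the left.

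Markers of other cell types were read in both lines. The 10 pan-leukocyte markers summed to between 13.8 and 15.8 CPM in WT and between 13.5 and 18.5 CPM in Y428F libraries, and Lcp1 was the most abundant in both (10.2 and 8.86 CPM). Ptprc, which encodes CD45, had 6 to 18 counts in WT and 49 to 64 in Y428F libraries, and Spi1, a transcription factor of blood cells, had 0 to 1 and 11 to 21, whereas Tyrobp and Fcer1g had 0 counts in every Y428F library. The 9 macrophage markers summed to between 1.41 and 2.21 CPM in WT and between 3.89 and 5.32 CPM in Y428F libraries. Lyz2 led them at 0.500 and 3.18 CPM, and C1qb had 0 to 1 counts in WT and 5 to 11 in Y428F libraries, whereas Adgre1, C1qa and C1qc had 0 counts in every Y428F library. The 13 endothelial markers summed to between 3.13 and 4.92 CPM and between 7.69 and 11.7 CPM, led in WT cells by Vwf (2.15 against 1.16 CPM in Y428F cells) and in Y428F cells by Cdh5. Without Cdh5 they summed to between 2.62 and 4.07 CPM in WT and between 2.08 and 2.85 CPM in Y428F libraries, while Pecam1 had at most 6 counts in any library. The megakaryocyte markers summed to between 4.37 and 6.35 CPM and between 19.5 and 21.1 CPM, of which the choice of Mmrn1 fixed a part, and without Mmrn1 to between 4.37 and 6.35 CPM and between 9.49 and 12.1 CPM. The 8 epithelial markers summed to between 0.308 and 0.967 CPM and between 3.33 and 5.51 CPM, led by Krt8 (0.423 and 3.51 CPM), with Epcam at 0 counts in all 12 libraries. The mast cell markers reached at most 0.423 CPM in any library and the lymphocyte markers at most 0.268 CPM. The megakaryocyte sum without Mmrn1 and the epithelial sum were higher in every Y428F library than in any WT library, also without Krt8 for the latter (0.0582 to 0.413 CPM in WT, 0.943 to 1.20 CPM in Y428F libraries). The macrophage sum was too, but without Lyz2 the lines overlapped (0.923 to 1.81 and 1.12 to 1.75 CPM). The endothelial sum was higher only with Cdh5 in it. The part of these markers in the result was not tested.

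Of the other fixed lists, the neural and Schwann markers summed to between 2.17 and 3.36 CPM in WT and between 0.657 and 1.20 CPM in Y428F libraries. The osteoblast markers were led by Spp1 (741 and 494 CPM), the adipocyte markers by Lpl (341 and 382 CPM), the chondrocyte markers by Sox9 (54.2 and 20.2 CPM) and the smooth muscle markers by Acta2, and none held any of the 31 genes. Acta2 is given by treatment, since its order between the lines depended on it: with vehicle it was at 107 ± 15.8 CPM in WT cells against 129 ± 7.49 CPM in Y428F cells, and at 487 ± 6.10 and 290 ± 17.1 CPM with PTH (SD, n = 3 each). The 22 YAP targets summed to between 3027 and 4113 CPM in WT and between 3021 and 3892 CPM in Y428F libraries, led by Axl at 905 and 699 CPM. Genes of that list went both ways, with F3 at 55.8 and 30.6 CPM, Ccn2 at 12.9 and 48.4 CPM and Birc5 at 26.7 and 72.2 CPM, over both treatments. The cAMP targets summed to between 325 and 422 CPM and between 260 and 365 CPM. Neither of these lists held any of the 31 genes. Among the glypicans, Gpc1 was at 0.344 CPM in WT cells against 79.5 CPM in Y428F cells, with all of its 35 WT counts in WT PTH library 1, and Gpc4 was at 98.7 and 103 CPM. The 5 sex-linked genes summed to at most 1.77 CPM in a WT library and 0.0555 CPM in a Y428F library. The WT value was that of WT PTH library 1, with its 30 counts of Y chromosome genes. Xist had 0 to 5 counts in WT and 0 to 1 in Y428F libraries.

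The response to PTH could be tested within the Y428F libraries, since the limits do not use the difference between treatments. All 31 genes passed the filter of 10 counts in total. At an adjusted p under 0.05 (edgeR quasi-likelihood test, Benjamini-Hochberg over 17691 genes), 0 of the 31 were higher and 1 was lower with PTH, 3.23% of them. Of all genes tested, 12.4% were called, 6.61% higher and 5.78% lower. Of the 5283 genes with at least 40 counts in all Y428F libraries and none above the highest count of the 31, 16.1% were called. That highest count, 825, was of Bche, whereas Megf6, the next, reached 374. Only 11 of the 31 had at least 100 counts in each Y428F library. The 5283 genes were thus not matched to the 31 in depth, and the part of depth in these shares was not tested. At an unadjusted p under 0.05 there were 2 of the 31 (6.45%), against 24.4% of all genes tested and 31.1% of those 5283, and DESeq2 called the same 1 gene.

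Megf6 was the gene called. Its level was 18.2 ± 0.607 CPM in vehicle and 13.5 ± 1.17 CPM in PTH libraries (SD, n = 3 each). The log2 fold change was -0.43 (SE 0.14, edgeR adjusted p = 0.0488), and it was lower in all 3 PTH libraries than in any vehicle library. The call was lost in 8 of the 12 fits that left out 1 library, namely each of the 6 Y428F libraries and WT PTH libraries 1 and 2, with adjusted p from 0.0196 to 0.194 over the 12, and it was lost at 0.0516 under a filter of at least 10 counts in each of 3 libraries. Def6 was at 5.10 ± 0.363 CPM in vehicle and 3.46 ± 0.378 CPM in PTH libraries. Its log2 fold change of -0.56 (SE 0.20) did not pass (edgeR adjusted p = 0.0754), and its 3 PTH libraries were also below its 3 vehicle libraries.

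The other 29 genes did not pass. Vnn1 had the largest positive value, from 2.62 ± 0.304 to 3.72 ± 0.430 CPM (log2 fold change 0.51, SE 0.27, edgeR adjusted p = 0.275). Cysltr1 had 10.7 ± 1.05 and 12.8 ± 1.09 CPM (0.27 on the log2 scale, SE 0.13, edgeR adjusted p = 0.225), and Bche had 40.3 ± 1.21 and 38.4 ± 2.46 CPM (-0.07, SE 0.08, edgeR adjusted p = 0.690). Over the 31 genes, 15 log2 fold changes were positive and 16 negative, with a median of -0.012, where the median of all genes tested was -0.0067. The 3 libraries of each treatment did not overlap in CPM for 7 genes: 4930461G14Rik, Megf6 and Def6 were lower with PTH, and Nkx2-5, Cyp3a13, Vnn1 and Cdh2 were higher. Of all genes tested, 30.8% did not overlap in this way, and of the 5283 genes within the same outer limits of counts, not matched in depth, 37.6%. In WT cells no change with PTH could be measured for these genes, since the limits left out any gene above 5 counts in a WT library.

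**Figure D4:**
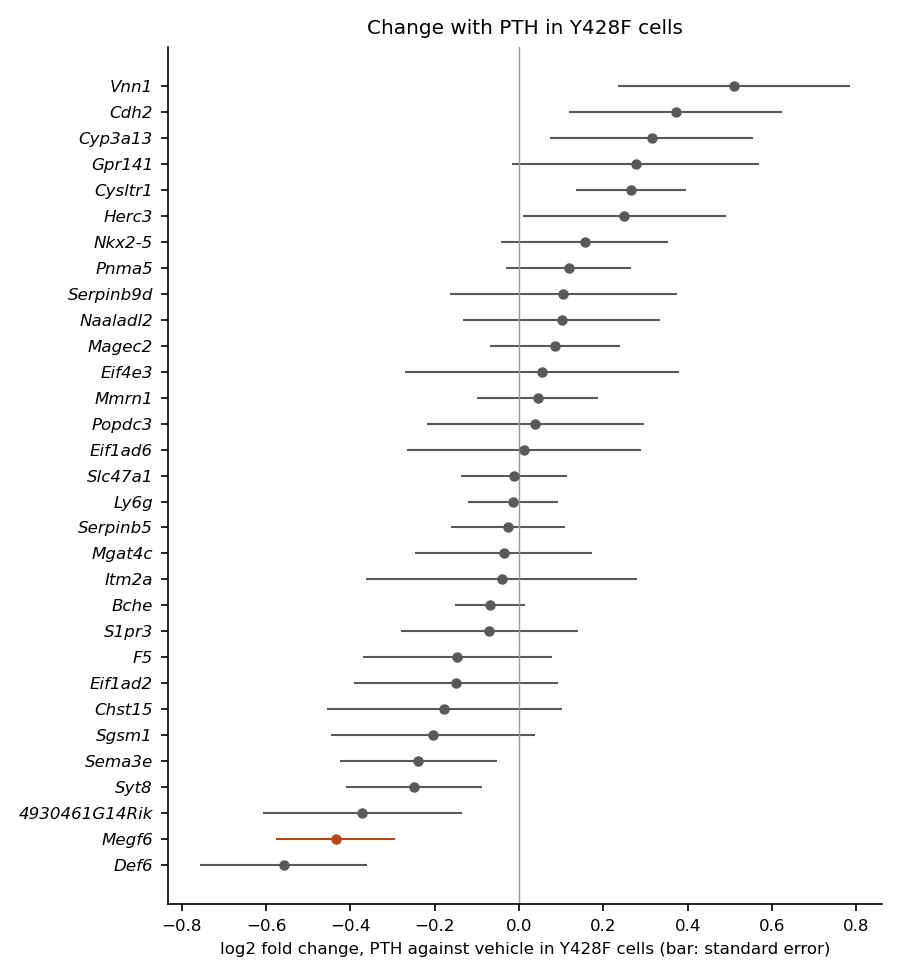
Log2 fold change of the 31 genes with PTH in Y428F cells (points, edgeR, 3 libraries against 3), with bars of 1 standard error. The values run from -0.56 (Def6) to 0.51 (Vnn1) on both sides of 0, and Megf6, in red, is the gene with an adjusted p under 0.05.

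The genes beside the 31 were examined for differences of whole regions between the lines. Within 100 kb lay 235 other annotated genes. A total of 121 had 0 counts throughout, and 30 had at least 40 in all 12. The test of Y428F against WT cells with vehicle covered 73 of them beside 25 of the 31 genes. Of these, 27 (37.0%) were higher and 15 (20.5%) lower in Y428F cells, against 22.4% and 22.7% of all genes tested. The median log2 fold change was 0.17, against 0.012 over all. Of the 27, only 10 had at least 40 counts in all Y428F libraries, and of the 15, 12 had at least 40 in all WT libraries. With a filter of at least 10 counts in each of 3 libraries, 43 were tested, of which 15 (34.9%) were higher and 15 (34.9%) lower, against 28.5% and 29.6% of the 13489 genes then tested, so the larger number of higher genes was lost. The median log2 fold change was then -0.027.

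The regions did not follow 1 pattern. Beside Popdc3, Prep, a prolyl endopeptidase 10.899 kb away, was at 73.4 CPM in WT cells against 153 CPM in Y428F cells with vehicle (log2 fold change 1.06, edgeR adjusted p = 2.4e-11). Beside Itm2a, the receptor Gpr174, 78.569 kb away, had 3 to 9 counts in WT and 55 to 112 in Y428F libraries (3.50 on the log2 scale, edgeR adjusted p = 1.9e-08). Beside F5, the adhesion receptor Selp, 1.693 kb away, was at 0.394 and 1.76 CPM (2.13 on the log2 scale, edgeR adjusted p = 0.00016). Around Nkx2-5 the expressed genes went both ways, Kifc5b from 12.0 to 22.6 CPM and Crebrf from 51.3 to 17.3 CPM. Tprg1l, 10.003 kb from Megf6, was at 93.4 and 66.8 CPM (-0.48 on the log2 scale, edgeR adjusted p = 3.6e-06), and Ppard and Zfp523 on either side of Def6 were also lower, at 67.8 and 52.6 CPM and at 41.7 and 34.4 CPM. Fgfr2, whose long annotated span (129763471 to 132725079) takes in Chst15 (131837507 to 131919201), was at 54.9 and 50.9 CPM (edgeR adjusted p = 0.26). Where in that span its reads lay was not examined, so its level does not describe the region of Chst15.

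**Figure D5:**
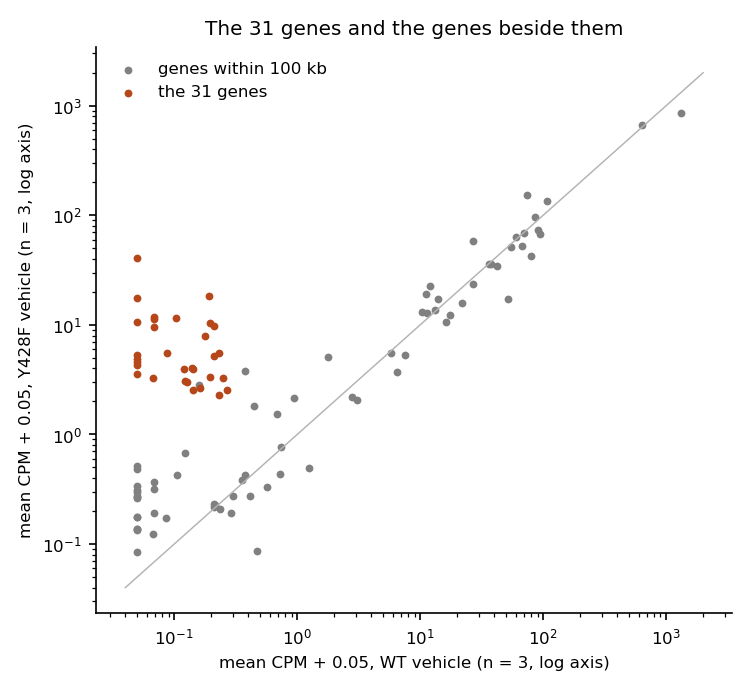
Mean CPM plus 0.05 in Y428F against WT cells with vehicle (log axes, n = 3 each) for the 31 genes (red) and the tested genes within 100 kb of them (grey), with a line of equal level. The red points lie far above the line, as the limits require, while the grey points above 10 CPM lie nearer to it, among them Prep (73.4 and 153 CPM) above and Crebrf (51.3 and 17.3 CPM) below it, and a column of grey points at the left edge had 0 counts in WT cells.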

How the data were processed

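The 12 libraries were poly-A selected RNA from W-20 cells. The authors mapped reads with STAR 2.7.10b to GRCm39 with GENCODE basic annotation and deposited RSEM expected counts per gene, with no scaling between libraries. Whether the libraries kept strand is not settled by the labels, so reads of a gene and an antisense partner cannot be told apart. Reads were not analysed here.

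Expected counts were rounded, and edgeR 4.0.16 in R 4.3.3 was used (quasi-likelihood test, TMM, all 4 groups, a minimum of 10 counts summed over libraries, Benjamini-Hochberg over 17691 genes). DESeq2 1.42.0 was an alternative, with other normalizations, filters, limits and each library left out. CPM use TMM-scaled totals, and levels per kb the longest transcript. Positions and windows came from GENCODE M39, which matched 56236 of the gene identifiers and not 744. Intervals and floors cover counting error only.

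The 31 genes and the gene lists were chosen with earlier results of these data known. Named genes were those called with PTH, the 12 with the highest level per length, the 5 on each side of each limit, those in a fixed list, near another of the 31 or with family mates, and the leading list genes. Others were named after their values were seen: all of the 31, the genes beside them, Yap1, Plxnd1, and the genes of WT PTH library 1.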

Additional observations from a re-analysis of the deposited data

How the results depend on the processing

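The number of genes found moved with the limits. It was 5 with 0 counts in each WT library, 15 with at most 3, 52 with at most 10, 52 with at least 20 in each Y428F library and 11 with at least 100. It was 24 with limits scaled to the median library total. Leaving out 1 library gave 31 to 35 genes, and all 31 were found each time. With PTH, 0 of the 31 genes were called higher in every alternative run. The number called lower was 1, but 0 with at least 10 counts in each of 3 libraries, 0 at an adjusted p under 0.01 with a log2 fold change beyond 0.3, 2 (Megf6 and Def6, edgeR adjusted p = 0.00408 and 0.0275) in the Y428F libraries alone, where 1184 of 16112 genes (7.35%) were called lower and 1488 higher, and 0 to 1 without a library. Over all genes 1170 were higher and 1022 lower with PTH, 535 and 407 at the stricter limits, and 803 to 1329 and 616 to 1186 without a library. With library totals in place of TMM they were 888 and 1445, so that 38.1% of the calls were higher instead of 53.4%. Between the lines with vehicle, 3966 genes were higher and 4020 lower in Y428F cells, and 3461 to 4074 and 3630 to 4127 without a library. Genes beside the 31 called higher numbered 27, but 15 (with 15 lower) under the stricter filter, 14 within 50 kb and 87 within 500 kb, and those called lower 8 and 62. Without a library they were 22 to 27 and 13 to 15.

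Library numbers did not pair the samples: over 18 pairs of the same number the mean correlation of deviations was 0.0019. With the replicate number as a block, 1196 genes were higher and 1077 lower with PTH, 0 and 1 of the 31 genes, and 26 and 15 of the genes beside them. Between the lines the block gave 3974 and 4002. It changed no other call of the 31 genes: Megf6 kept its call (edgeR adjusted p = 0.0439) and Def6 did not pass (0.0904). At these depths a change with PTH in WT cells could not be detected for the 31 genes, and a small change in Y428F cells could be missed for those near 40 counts.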
